A study of Mus musculus with 8 samples.

Results

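Iron handling and metallothionein genes were followed in cells sorted as eosinophils from the bone marrow and the small intestine of mice. The set was chosen by gene symbol, with earlier results of these data known. All 10 of its genes were found among the 38392 genes of the table: the metallothioneins Mt1 and Mt2, the ferritin chains Fth1 and Ftl1, the transferrin receptor Tfrc, the iron exporter Slc40a1, the metal ion transporters Slc11a1 and Slc11a2, and the iron regulatory proteins Aco1 and Ireb2. All 10 were protein coding and had a mean of at least 10 reads over the 8 libraries.

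Eosinophils are granulocytes that are produced in the bone marrow and settle in the gut wall. RNA was sequenced from 4 libraries per tissue, all from untreated wildtype C57/BL6 mice, which were female and, by the methods of the study, young adults matched for age within an experiment. Small intestinal cells were CD11b+MHC-II-SiglecF+SSChi, and bone marrow cells were CD11b+Ly6G-Ly6C-SiglecF+SSChi. The intestine was digested warm with collagenase and its cells were enriched on CD11b beads, whereas bone marrow was flushed and sorted unselected, so tissue and handling cannot be told apart. The libraries held 11508002 to 21289164 reads in genes, and they carry the names of the columns, with BM_1, BM_3, BM_4, BM_5 from bone marrow and SI_6, SI_7, SI_10, SI_11 from small intestine. The columns gave the tissue but not the single mouse, and p-values below measure the spread between these libraries only. A normalised count is a number of reads over the size factor of the library.

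A cell takes up iron that is bound to transferrin through the transferrin receptor, stores it in a shell of heavy and light ferritin chains, and releases it through ferroportin, the product of Slc40a1. Iron regulatory proteins, encoded by Aco1 and Ireb2, bind a stem-loop called the iron-responsive element. Bound ahead of the coding sequence it blocks translation, as in ferritin, and bound behind the coding sequence it protects the transcript, as in Tfrc. Much of the control of ferritin is therefore exerted on its protein, which was not measured here. Metallothioneins are small cysteine-rich proteins that bind zinc and copper, and their genes are switched on by the zinc sensor MTF1.

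Before the values, the sorted populations were checked against markers of eosinophils and of other cells. The 12 eosinophil markers took 0.0353% to 0.0497% of bone marrow reads and 0.219% to 0.273% of small intestine reads, with 5 of them called higher and 6 called lower in small intestine. From bone marrow to small intestine, Siglecf, the surface protein used for sorting, had mean normalised counts of 579.9 and 3076, and Epx, eosinophil peroxidase, of 349.9 and 20.6. The most abundant eosinophil markers in bone marrow were Prg2 (1831 and 147) and Cebpe (1714 and 526). In small intestine they were Alox15 (159 and 19775) and Ccr3 (70.9 and 16351). The 12 neutrophil precursor markers, led by Mpo and S100a9, took 3.83% to 4.56% of bone marrow reads and 0.00512% to 0.00706% of small intestine reads, 11 of them called lower and 1 higher. Erythroid markers took 0.00996% to 0.0121% of bone marrow reads and 0.000744% to 0.00157% of small intestine reads (10 of 12 lower), and macrophage and monocyte markers 0.0574% to 0.0750% and 0.0143% to 0.0214% (7 of 12 higher, 1 lower). The 12 enterocyte and epithelial markers, led in small intestine by Krt19 and Lgals4, took 0.00134% to 0.00161% in bone marrow, where Phgr1 was at 0 in every library, and 0.0220% to 0.146% in small intestine, with all 12 called higher. Pancreatic and Paneth cell markers took 0.000358% to 0.000492% and 0.0404% to 0.359% (10 of 10 higher), fibroblast and smooth muscle markers 0.000589% to 0.00169% and 0.00579% to 0.0153% (9 of 10 higher), and B and plasma cell markers 0.00180% to 0.00333% and 0.0262% to 0.170% (3 of 8 higher, 2 lower). In RNA from many cells, fewer cells of a type and less RNA per cell cannot be told apart.

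Between the tissues, Slc11a1, Fth1 and Mt2 were higher in the small intestine libraries, Mt1 and Tfrc were lower, and the other 5 genes did not pass the test. Thus 5 of the 10 genes were called at an adjusted p below 0.05 (limma over all 38392 genes, Benjamini-Hochberg), against 34.9% of all genes and 63.1% of the 16215 genes that reached a mean of 10 reads. The 3 that rose stand beside 22.0% of all genes called higher, and the 2 that fell beside 12.9% called lower. In the same number of genes, 5 of 10, the libraries of the tissues did not overlap, against 34.3% of all genes. The shares over all genes include those with few reads, whereas all 10 genes of the set reached a mean of 10 reads. With differences taken as small intestine minus bone marrow in deposited log2 units, the median of the 10 genes was -0.11, and that of all genes was 0.37. The median size of the difference regardless of sign was 0.75 in the set, 0.73 in all genes and 1.14 in the better-covered genes. Each of the 5 called genes kept its direction under every scaling that was tried. Neutrophil precursor markers took 3.83% to 4.56% of bone marrow reads, against 0.0353% to 0.0497% for eosinophil markers. The part of other cells in the 5 calls was not tested, so these are differences between sorted populations.

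**Figure D1:**
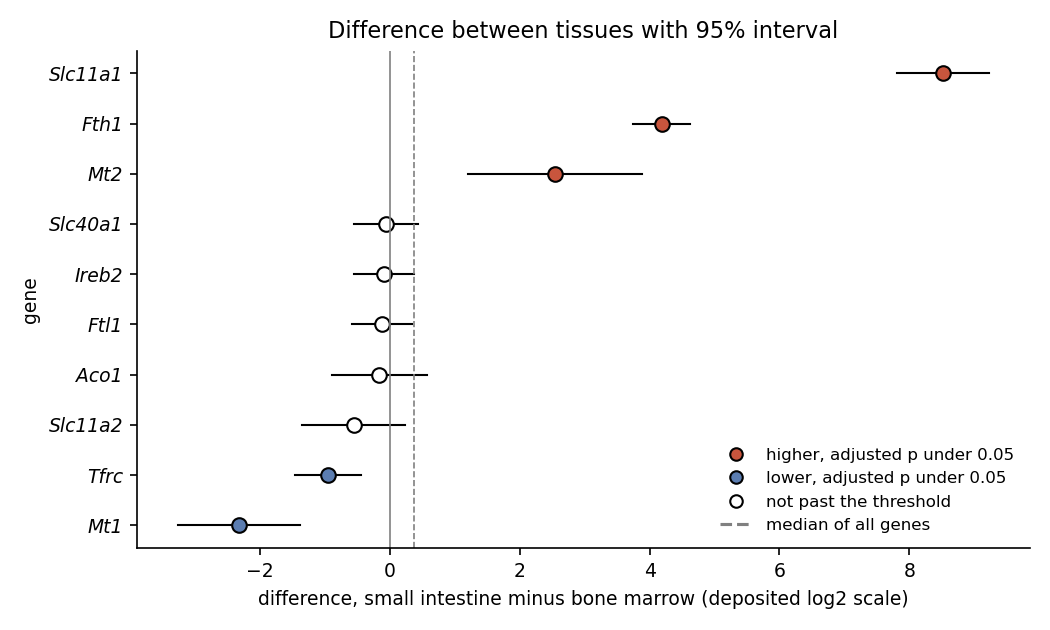
Difference of each of the 10 genes between small intestine and bone marrow on the deposited log2 scale (horizontal axis, points), with its 95% interval from limma (lines). Filled points passed an adjusted p of 0.05, the solid vertical line is 0 and the dashed line is the median of all genes, 0.37. Slc11a1 at 8.52 and Fth1 at 4.19 lie far to the right, Mt1 at -2.33 and Tfrc at -0.96 to the left, and the intervals of the 5 open points include 0.

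Ferritin is the iron store of the cell, and its heavy and light chains moved apart. Fth1 (ENSMUSG00000024661) encodes the heavy chain, which oxidises iron for storage, and lies on the plus strand at chr19:9980598-9985098 (GRCm38). Its normalised counts were 2554, 2229.7, 2418 and 1828 in BM_1, BM_3, BM_4 and BM_5. In SI_6, SI_7, SI_10 and SI_11 they were 36563, 39969.9, 40933 and 46754. Every small intestine library thus stood above every bone marrow library, and the spread within a tissue was small. The means were 2257 ± 316 and 41055 ± 4237 (SD, n = 4 each), an 18.2-fold rise and a difference of 4.19 ± 0.19 (SE) on the deposited log2 scale (limma adjusted p = 2.04e-06).

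Ftl1 (ENSMUSG00000050708), on the minus strand at chr7:45457944-45459884, encodes the light chain, which forms the mineral core. Its normalised counts were 7949.8, 7073, 7455 and 5408 in the bone marrow libraries BM_1, BM_3, BM_4 and BM_5, and 5419.6, 6419, 6416 and 7210.1 in SI_6, SI_7, SI_10 and SI_11. The tissues overlapped, with means of 6972 ± 1102 and 6366 ± 733 (SD, n = 4 each). The difference was -0.12 ± 0.20 (SE; 95% interval -0.59 to 0.34; limma adjusted p = 0.655). With quantile normalisation it was -0.82 and passed the test (limma adjusted p = 0.00370), so the light chain cannot be said to be equal in the tissues.

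The ratio of the chains within a library does not depend on scaling between libraries. Reads of Fth1 per read of Ftl1 were 0.321, 0.315, 0.324 and 0.338 in BM_1, BM_3, BM_4 and BM_5. In SI_6, SI_7, SI_10 and SI_11 they were 6.75, 6.23, 6.38 and 6.48. The libraries of each tissue lay close together and the tissues did not overlap. On the log2 scale the ratio went from -1.62 ± 0.04 to 2.69 ± 0.05 (SD, n = 4 each), a difference of 4.31 (2-sided exact permutation test, p = 0.0286, and 0.0286 adjusted over 5 values per library, the smallest that 4 against 4 libraries can give). Both ferritin chains together took 0.0691% ± 0.00918 of bone marrow reads and 0.296% ± 0.0203 of small intestine reads (SD, n = 4 each; exact permutation p = 0.0286, adjusted 0.0286).

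Per kilobase of exon, Fth1 had 651 normalised counts in bone marrow, rising to 11835, which placed it 548th and 20th among 20623 protein-coding genes ranked by mean level. Ftl1 had 5203 and 4751 normalised counts per kilobase and ranked 47th and 69th. The light chain was thus the more abundant ferritin transcript per length in bone marrow and the heavy chain in small intestine. Exon length here is the union over annotated transcripts, 3469 bases for Fth1 and 1340 for Ftl1, and a long union lowers the value per kilobase.

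Ferritin genes have many processed copies in the genome. Of the 75-base windows of the transcripts of Ftl1, 42.3% occur letter for letter in another gene (Ftl1-ps1, Gm15590 or Ftl2-ps), against 0.882% for Fth1 (Gm6977) and 0% for each of the other 8 genes. How reads with several matches were treated is not given in the sources used here, so the level of Ftl1 is uncertain. The reads listed for the copies in the table were 2.80% to 7.22% of those of Fth1 in a library and 0.327% to 0.477% of those of Ftl1. Of 9 listed copies with values, 1 was called, Fth-ps2, which rose from 109 ± 25.0 to 1294 ± 253 normalised counts (SD, n = 4 each; difference 3.53, limma adjusted p = 1.53e-05). Gm6977, found through the shared windows and so chosen after its values were seen, had 1.17 ± 1.86 and 51.7 ± 4.99 normalised counts. With the reads of the copies added to each chain, the difference in the Fth1 to Ftl1 ratio was 4.29 on the log2 scale, against 4.31 without them.

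**Figure D2:**
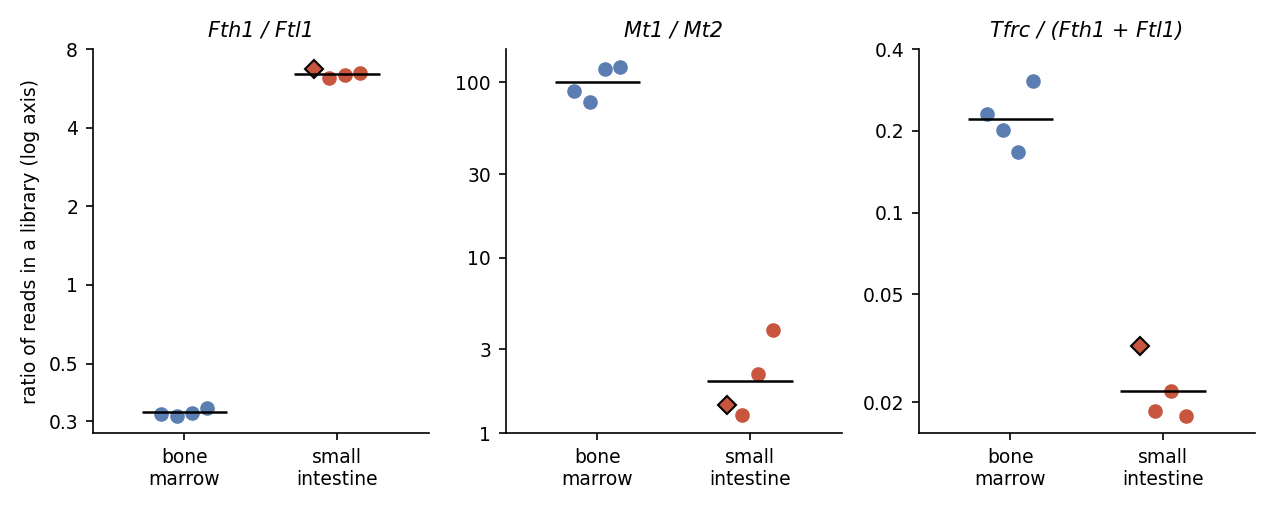
Ratio of reads within each library (vertical log axes) for Fth1 to Ftl1, Mt1 to Mt2 and Tfrc to the sum of Fth1 and Ftl1, in bone marrow (blue) and small intestine (red). Points are libraries, the outlined diamond is SI_6, and bars are geometric means of 4 libraries. No ratio overlapped between the tissues: the ratios ran from 0.315 to 0.338 against 6.23 to 6.75, from 77.8 to 123 against 1.28 to 3.86, and from 0.167 to 0.304 against 0.0177 to 0.0324.

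The iron-responsive elements of these transcripts are shown because they link ferritin, the receptor and the exporter to the regulatory proteins. The untranslated regions of all 10 genes (GENCODE M21, GRCm38) were searched for a fixed pattern: a C, any 5 bases, the loop CAGTGN, and 5 bases that pair with the first 5, G-T pairs allowed. It was found at 7 places in 4 genes, ahead of the coding sequence in Fth1, Ftl1 and Slc40a1 and 4 times behind it in Tfrc. The loop is in capitals in each 27-base stretch below, written 5′ to 3′ on the strand of the transcript.
Fth1, chr19:9982733-9982759, plus strand: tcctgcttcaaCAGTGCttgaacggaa
Ftl1, chr7:45459780-45459806, minus strand: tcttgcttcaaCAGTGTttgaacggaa
Slc40a1, chr1:45925466-45925492, minus strand: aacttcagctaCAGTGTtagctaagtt
Tfrc, chr16:32631220-32631246, plus strand: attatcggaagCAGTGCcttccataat
Tfrc, chr16:32631599-32631625, plus strand: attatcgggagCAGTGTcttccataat
Tfrc, chr16:32631664-32631690, plus strand: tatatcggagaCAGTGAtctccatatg
Tfrc, chr16:32631711-32631737, plus strand: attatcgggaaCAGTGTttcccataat

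The 4 elements of Tfrc lie in 1 annotated 3′ untranslated region of 2458 bases, which 1 of 2 coding transcripts with such a region carries. The element was in 4 of 5 annotated 5′ untranslated regions of Fth1, in 1 of 2 of Ftl1 and in 1 of 4 of Slc40a1. Over the genome the pattern was found in 0.122% of 49055 5′ and 0.456% of 44309 3′ untranslated regions. Among regions within 10% of the same length it was found in 0.174% for Fth1, 0.111% for Ftl1, 0.205% for Slc40a1 and 1.19% for Tfrc. The other 6 genes had no match, which says only that this pattern is not in their annotated regions. The transcripts with the pattern did not move together: among the 5′ carriers Fth1 rose while the differences of Ftl1 and Slc40a1 did not pass the test, and Tfrc fell. Transcript levels cannot show control of translation at the 5′ elements.

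Tfrc (ENSMUSG00000022797; chr16:32608920-32632794, plus strand) encodes the receptor through which most cells take up iron-loaded transferrin. Its normalised counts were 2432, 1882, 1649.7 and 2201 in BM_1, BM_3, BM_4 and BM_5, and 1358, 858, 1046 and 957 in SI_6, SI_7, SI_10 and SI_11. Every small intestine library was below the lowest bone marrow library, with SI_6 nearest to it. The means were 2041 ± 345 and 1055 ± 216 (SD, n = 4 each), a 1.94-fold fall, and the difference was -0.96 ± 0.22 (SE; limma adjusted p = 0.0102).

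The ratio of the receptor to the ferritin transcripts within a library combines its fall with the rise of Fth1. Reads of Tfrc per read of both ferritin chains were 0.232, 0.202, 0.167 and 0.304 in BM_1, BM_3, BM_4 and BM_5. In SI_6, SI_7, SI_10 and SI_11 they were 0.0324, 0.0185, 0.0221 and 0.0177. The tissues did not overlap, and SI_6 was nearest to bone marrow. The log2 ratio went from -2.18 ± 0.36 to -5.51 ± 0.40 (SD, n = 4 each; difference -3.33, exact permutation p = 0.0286, adjusted 0.0286).

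Slc40a1 (ENSMUSG00000025993; chr1:45908068-45926523, minus strand) encodes ferroportin, the exporter of iron from the cell. Bone marrow and small intestine both held it, with normalised counts of 1275, 1176, 922 and 1073 in BM_1, BM_3, BM_4 and BM_5, and 819.8, 1111, 1289.8 and 1062 in SI_6, SI_7, SI_10 and SI_11. The tissues overlapped, with SI_6 the lowest and SI_10 the highest library of all, and the difference was -0.06 ± 0.21 (SE; 95% interval -0.55 to 0.43; limma adjusted p = 0.842). Without BM_1 or without SI_6 its sign turned, to 0.0068 and 0.06 (limma adjusted p = 0.987 and 0.806).

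Slc11a1 and Slc11a2 encode related transporters of divalent metal ions. Slc11a1 (ENSMUSG00000026177; chr1:74375195-74386062, plus strand), also called Nramp1, encodes a protein of the membrane of phagosomes and lysosomes and of granules. Its normalised counts were 3.83, 7.83, 10.5 and 8.37 in BM_1, BM_3, BM_4 and BM_5, which rest on 5, 12, 11 and 9 reads. In SI_6, SI_7, SI_10 and SI_11 they were 2508, 3927, 5070.4 and 4914. The gene was near the limit of detection in every bone marrow library and abundant in every small intestine library, least so in SI_6. The means were 7.64 ± 2.79 and 4105 ± 1179 (SD, n = 4 each), a 537.5-fold rise, and the difference was 8.52 ± 0.31 (SE; limma adjusted p = 7.53e-07). Only 38 of the 38392 genes had a higher difference. Per kilobase of exon it went from 2.06 to 1108 normalised counts, from rank 11950 to rank 413 among protein-coding genes. Macrophages also express Slc11a1, and 7 of the 12 macrophage and monocyte markers were called higher, among them Csf1r with mean normalised counts of 190.1 and 1301. The summed share of these markers was lower in small intestine, where Ly6c2 fell from 8268 to 16.7. Their part in the rise of Slc11a1 was not tested. The protein of Slc11a1 and its transport of metal ions were not measured in these mice.

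Slc11a2 (ENSMUSG00000023030; chr15:100387898-100425072, minus strand), also called DMT1, moves iron out of endosomes after uptake and across the brush border of the gut. Normalised counts were 214, 216, 189 and 199 in BM_1, BM_3, BM_4 and BM_5, a narrow range. In SI_6, SI_7, SI_10 and SI_11 they were 293, 115, 93.0 and 114, so SI_6 stood above every bone marrow library and the other 3 below. The difference was -0.55 ± 0.35 (SE; 95% interval -1.35 to 0.24; limma adjusted p = 0.258). Without SI_6 it was -0.91 ± 0.14 (SE; limma adjusted p = 0.00281), with 107 ± 12.4 normalised counts in the remaining 3 libraries, so this call was decided by 1 library. With all libraries kept, Slc11a2 passed when each was centred on its median over all genes (-1.45, limma adjusted p = 0.00855). That centring moved the median of all genes from 0.37 to -0.53. Slc11a2 did not pass when only the better-covered genes served for the centring (-0.62, limma adjusted p = 0.159). Nor did it pass with quantile normalisation (-0.54, limma adjusted p = 0.243) or voom (-0.56, limma adjusted p = 0.136).

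Aco1 and Ireb2 encode the iron regulatory proteins IRP1 and IRP2. Aco1 (ENSMUSG00000028405; chr4:40143081-40198338, plus strand) serves as a cytosolic aconitase when it holds an iron-sulphur cluster. It had 239, 184, 243 and 163 normalised counts in BM_1, BM_3, BM_4 and BM_5, and 339, 164, 133 and 148 in SI_6, SI_7, SI_10 and SI_11. SI_6 was again the highest library of all, and the difference was -0.16 ± 0.32 (SE; 95% interval -0.90 to 0.58; limma adjusted p = 0.720). Without SI_6 it was -0.46 ± 0.19 (SE; limma adjusted p = 0.121). Ireb2 (ENSMUSG00000032293; chr9:54863789-54912530, plus strand), whose protein is degraded when iron is plentiful, had 1038, 1118, 764 and 1080.3 normalised counts in BM_1, BM_3, BM_4 and BM_5 and 832, 908, 1089.6 and 910.3 in SI_6, SI_7, SI_10 and SI_11. The tissues overlapped, with a difference of -0.09 ± 0.20 (SE; 95% interval -0.55 to 0.38; limma adjusted p = 0.760). Per kilobase, the bone marrow and small intestine levels of Ireb2 were 105 and 98.6 normalised counts, and those of Aco1 were 46.1 and 43.6.

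**Figure D3:**
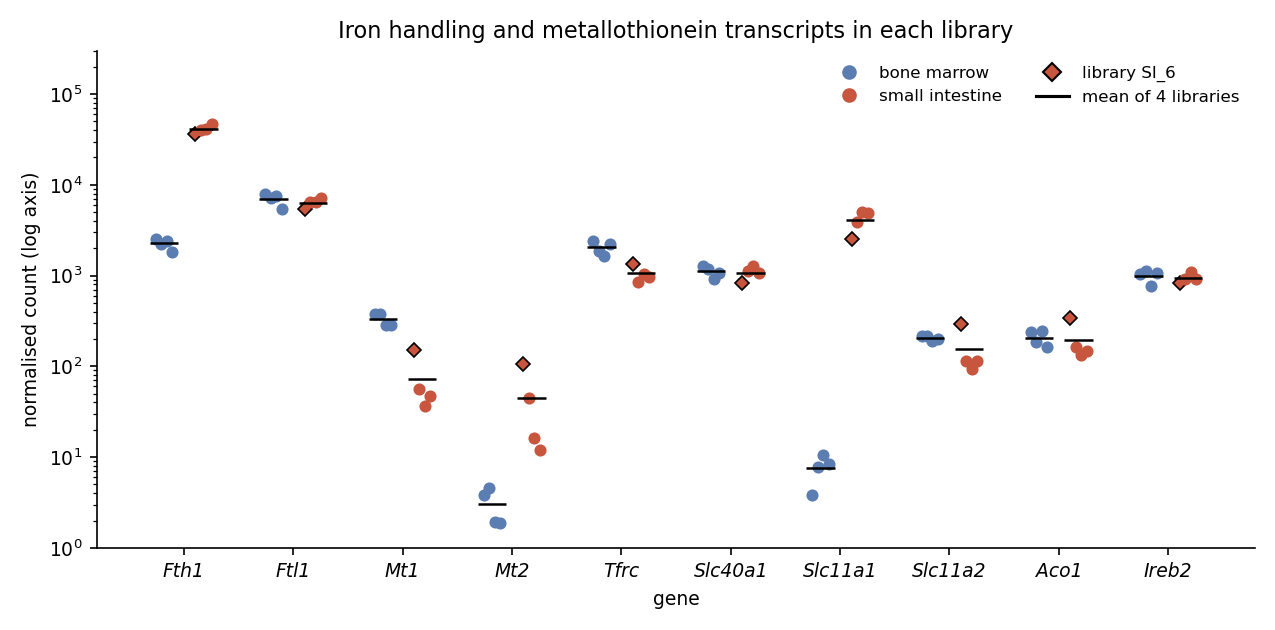
Normalised counts (vertical log axis) of the 10 genes (horizontal axis) in each of 4 bone marrow (blue) and 4 small intestine (red) libraries, with SI_6 as an outlined diamond and the mean of each tissue as a bar. Fth1, Mt2 and Slc11a1 were higher and Mt1 and Tfrc lower in every small intestine library, and SI_6 sits at an end of the small intestine range in all 10 genes.

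The metallothioneins lie as neighbours on the plus strand of chromosome 8, Mt2 (ENSMUSG00000031762) at 94172664 to 94173568 and Mt1 (ENSMUSG00000031765) at 94179082 to 94180327, and moved in opposite directions. Mt1 had 376, 380.2, 285 and 285 normalised counts in BM_1, BM_3, BM_4 and BM_5, and 153, 56.9, 36.1 and 47.4 in SI_6, SI_7, SI_10 and SI_11. The tissues did not overlap, and SI_6 was well above the other small intestine libraries. The means were 332 ± 53.7 and 73.3 ± 53.7 (SD, n = 4 each), a 4.53-fold fall, and the difference was -2.33 ± 0.41 (SE; limma adjusted p = 0.00235). Without SI_6 the mean in small intestine was 46.8 ± 10.4 (SD, n = 3), 7.09-fold below bone marrow.

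Mt2 had 3.83, 4.56, 1.91 and 1.86 normalised counts in BM_1, BM_3, BM_4 and BM_5, from 5, 7, 2 and 2 reads, so it was barely detected there. In SI_6, SI_7, SI_10 and SI_11 it had 106, 44.4, 16.4 and 11.9 normalised counts, from 97, 32, 15 and 10 reads. All small intestine libraries were above bone marrow, but they spread widely, with SI_6 at the top. The means were 3.04 ± 1.37 and 44.6 ± 43.3 (SD, n = 4 each), a 14.7-fold rise, and the difference was 2.55 ± 0.59 (SE; 95% interval 1.21 to 3.89; limma adjusted p = 0.00919). Without SI_6 the rise was 7.96-fold, with a difference of 2.01 ± 0.43 (SE; limma adjusted p = 0.0114). With quantile normalisation the difference was 1.68 and did not pass the test (limma adjusted p = 0.103).

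Within a library, reads of Mt1 per read of Mt2 were 89.4, 77.8, 119 and 123 in BM_1, BM_3, BM_4 and BM_5 with 0.5 added to each count, and 1.44, 1.28, 2.16 and 3.86 in SI_6, SI_7, SI_10 and SI_11. Bone marrow libraries thus held Mt1 with almost no Mt2, and small intestine libraries held both within a factor of 3.86. The log2 ratio went from 6.65 ± 0.32 to 0.98 ± 0.72 (SD, n = 4 each; difference -5.67, exact permutation p = 0.0286, adjusted 0.0286). Together both genes took 0.00250% ± 0.000289 of bone marrow reads and 0.000747% ± 0.000627 of small intestine reads (SD, n = 4 each; exact permutation p = 0.0286, adjusted 0.0286), which for SI_6 was 0.00166% and for the other 3 libraries 0.000344% to 0.000634%. Per kilobase of exon, the bone marrow and small intestine levels were 266 and 58.8 normalised counts for Mt1, and 5.17 and 75.9 for Mt2. The union of annotated exons is 1246 bases for Mt1 and 588 for Mt2, and a long union lowers the value per kilobase. The order of the 2 genes in small intestine depends on these lengths, since reads of Mt1 exceeded those of Mt2 in every library.

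The promoters of both metallothioneins are shown because the genes are neighbours, answer to the same metal sensor and moved apart. They run from 230 bases before the RefSeq start to 27 bases after it (RefSeq, GRCm38.p6), at chr8:94178859-94179115 for Mt1 and chr8:94172388-94172644 for Mt2, both on the plus strand. Capitals mark the core letters of the metal response element, TGCACNC or TGCGCNC, searched on both strands.
Mt1: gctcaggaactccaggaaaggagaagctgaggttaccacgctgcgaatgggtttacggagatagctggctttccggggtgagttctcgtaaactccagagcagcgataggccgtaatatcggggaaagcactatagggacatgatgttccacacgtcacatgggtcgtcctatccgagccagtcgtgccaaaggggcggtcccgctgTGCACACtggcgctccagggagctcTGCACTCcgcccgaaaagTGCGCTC
Mt2: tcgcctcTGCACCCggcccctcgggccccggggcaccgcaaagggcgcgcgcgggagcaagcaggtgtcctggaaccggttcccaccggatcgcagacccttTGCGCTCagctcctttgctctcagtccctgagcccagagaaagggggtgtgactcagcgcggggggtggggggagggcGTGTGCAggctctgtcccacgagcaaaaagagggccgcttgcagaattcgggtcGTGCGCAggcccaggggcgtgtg

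The full window of 250 bases before and 50 after the start held 3 cores in Mt1, starting 23 bases before the start and 2 and 20 bases after it, all on the plus strand. That of Mt2 held 4 cores, 223 and 128 bases before the start on the plus strand and 50 bases before and 4 bases after it on the minus strand. Of 32851 mouse promoters of this length, 25.7% held at least 1 core, 1.97% at least 3 and 0.517% at least 4. Mt2 also held the antioxidant response core TGACNNNGC 79 bases before the start, on either strand in 12.4% of promoters. Entries were found for 8 of the 10 genes, not for Slc40a1 and Slc11a2. The positions and counts of cores hold for the RefSeq start used. Annotated 5′ untranslated regions ran from 70 to 229 bases in Mt1 and from 93 to 184 in Mt2. Other starts may therefore be in use, and cores near a start further downstream can lie outside the window. A match is a description of the letters and not a binding site, and both genes held the cores although they moved in opposite directions.

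Library SI_6 stood at an end of the small intestine range for each of the 10 genes. It was the highest of the 4 for Mt1, Mt2, Tfrc, Slc11a2 and Aco1, and the lowest for Fth1, Ftl1, Slc40a1, Slc11a1 and Ireb2. Its epithelial markers took 0.146% of the reads, against 0.0581% in SI_7, 0.0220% in SI_10 and 0.0237% in SI_11, and its eosinophil markers were the lowest of the 4 at 0.219%. SI_6 was also the highest of the 4 for B and plasma cell markers (0.170%), fibroblast and smooth muscle markers (0.0153%) and macrophage and monocyte markers (0.0214%), and pancreatic and Paneth cell markers were highest in SI_7. The part of this in the differences was not tested. Without SI_6 the called genes kept their direction and their call, with 4.24 for Fth1, 8.74 for Slc11a1, 2.01 for Mt2, -2.74 for Mt1 and -1.08 for Tfrc on the deposited log2 scale, and Slc11a2 joined them.

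**Figure D4:**
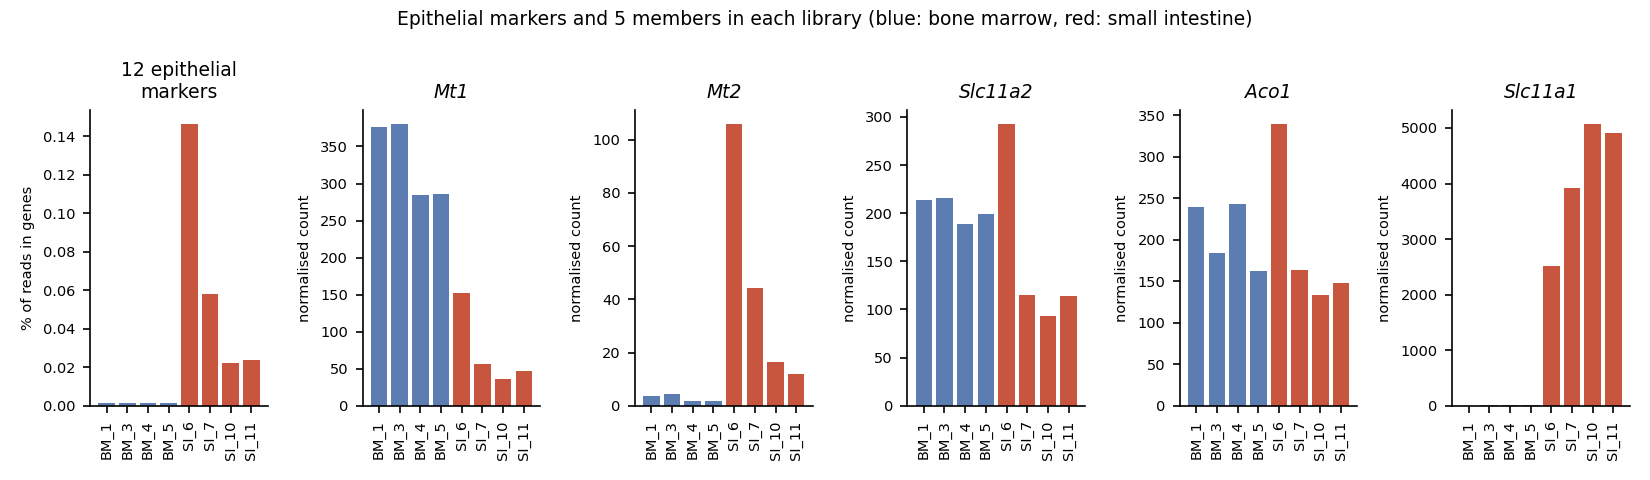
Summed share of reads of 12 epithelial markers (left panel, percent) and normalised counts of Mt1, Mt2, Slc11a2, Aco1 and Slc11a1 (other panels) in the 8 libraries, as bars from 0 (blue, bone marrow; red, small intestine). SI_6 has the highest epithelial share, 0.146%, and is the highest small intestine library for Mt1, Mt2, Slc11a2 and Aco1 and the lowest for Slc11a1.

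Other genes of metal handling were taken from 10 lists by known role, of which 107 of 109 genes were in the table and 92 had a mean of at least 10 reads. Of these 107, 29 were called higher, 36 lower and 42 not, with a median difference of -0.26 beside 0.37 for all genes. The 65 called are 60.7% of these 107 genes, of any depth. Beside this stand 34.9% of all genes and 63.1% of the genes that reached a mean of 10 reads, as 92 of the 107 did. With each library centred on its median over all genes, which moved the median of all genes to -0.53, 17 were higher and 54 lower. The highest small intestine library was SI_6 for 14 of the 29 genes called higher (48.3%), against 25.8% of the 8465 genes called higher in the whole table. Beside the counts of each list below stand 22.0% of all genes called higher and 12.9% called lower.

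Of 6 genes for iron storage and chaperones 5 fell, 0 rose and 1 was not called, with a median of -1.23. Of all genes 12.9% were called lower, and 63.1% of those with a mean of 10 reads were called in either direction. In this list 5 of the 6 reached that mean, and the gene not called, Ftmt, had a mean of 0.75 reads. Ncoa4, the receptor that takes ferritin to the lysosome, was the most abundant and went from 2127 ± 184 to 1013 ± 140 normalised counts (SD, n = 4 each; difference -1.07, limma adjusted p = 0.00212). Bola2, a partner in iron-sulphur transfer, fell most (difference -2.20, limma adjusted p = 0.000418). Pcbp1, an iron chaperone that delivers iron to ferritin, went from 2006 to 687 normalised counts (difference -1.56) and was named after its values were seen.

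Haem holds iron and is the cofactor of granulocyte peroxidases. Of 9 genes of haem synthesis 6 fell, 0 rose and 3 were not called (median -0.74). Alas1, the first enzyme of the pathway outside red cells, was the most abundant and went from 7226 ± 598 to 3094 ± 642 normalised counts (SD, n = 4 each; difference -1.24, limma adjusted p = 0.00161). The share of all genes called lower was 12.9%, but that includes genes with few reads, and all 9 of the list reached a mean of 10. Of the genes at that depth 63.1% were called in either direction. Of the neutrophil precursor markers 11 of 12, led by the haem peroxidase Mpo, and 10 of 12 erythroid markers were called lower too, with Alas2 in both the erythroid and the haem synthesis list, and their part in these values was not tested. Of 10 genes of haem breakdown and transport 3 fell, 1 rose and 6 were not called (median -0.29). Slc48a1, which carries haem out of lysosomes, was the most abundant in bone marrow and fell most, from 1232 ± 87.1 to 196 ± 8.68 (difference -2.63, limma adjusted p = 9.97e-06). Abcg2, a haem and porphyrin exporter, rose from 172 ± 13.9 to 738 ± 56.8 (difference 2.08, limma adjusted p = 3.79e-05). Hmox1, the haem oxygenase that frees iron, went from 238 to 80.9 normalised counts (difference -1.51) and was named after its values were seen.

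Mitochondrial iron and iron-sulphur assembly counted 23 genes, of which 9 fell, 4 rose and 10 were not called (median -0.58). All 23 reached a mean of 10 reads, and 56.5% of them were called, beside 63.1% of all genes at that depth. Slc25a37, mitoferrin 1, which imports iron into mitochondria, went from 2915 ± 243 to 598 ± 223 normalised counts (SD, n = 4 each; difference -2.34, limma adjusted p = 0.000212). Cisd2, an iron-sulphur protein of the endoplasmic reticulum and the mitochondrial surface, had the highest normalised count averaged over both tissues, though Slc25a37 was higher in bone marrow, and rose from 1149 ± 51.4 to 3099 ± 537 (difference 1.41, limma adjusted p = 0.000632). Isca1, an assembly factor, rose most, from 252 ± 28.9 to 774 ± 186 (difference 1.58, limma adjusted p = 0.000907).

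Iron uptake and ferrireductases were divided, with 5 of 14 genes higher, 5 lower and 4 not called (median 0.09). Lcn2, which binds bacterial siderophores, was the most abundant in bone marrow and fell most, from 25192 ± 4913 to 44.3 ± 10.3 normalised counts (SD, n = 4 each; difference -9.04, limma adjusted p = 2.27e-07), but it is also a marker of neutrophil precursors, a list that took 3.83% to 4.56% of bone marrow reads, and that part was not tested. Steap2, a metalloreductase, rose most, by 3.61 ± 0.79 (SE; limma adjusted p = 0.00713), with 37.9 to 129.9 normalised counts in the small intestine libraries and 0 to 27 in those of bone marrow. Of 9 genes of the hepcidin axis and iron sensing 5 rose, 1 fell and 3 were not called (median 1.39), but only 4 of the 9 reached a mean of 10 reads, and 3 of the 5 rises (Hamp2, Bmp6 and Tmprss6, named after their values were seen) rest on means of 2.5 to 4.9 reads. Neo1, a coreceptor for hemojuvelin, rose most, with 659, 257, 108 and 111 normalised counts in SI_6, SI_7, SI_10 and SI_11 against 0, 0, 0 and 13.0 in bone marrow (limma adjusted p = 0.000704), the same order of libraries as the epithelial, the fibroblast and smooth muscle and the B and plasma cell markers, whose part was not tested. Hfe, a partner of the transferrin receptors, fell from 189.7 ± 17.2 to 53.4 ± 11.1 (difference -1.77, limma adjusted p = 0.000213). Fbxl5, which marks IRP2 for degradation, was the most abundant, with 1193 ± 73.0 and 986 ± 200 normalised counts (SD, n = 4 each; limma adjusted p = 0.313).

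Zinc and copper genes were followed beside the metallothioneins. Mtf1, the zinc sensor that switches on both of them, went from 2088 ± 193 to 636 ± 81.9 normalised counts (SD, n = 4 each; difference -1.71, limma adjusted p = 0.000165), and the other metallothioneins of that list, Mt3 and Mt4, were at 0 in bone marrow and at most 2.19 in small intestine. Of 10 zinc exporters of the Slc30 family 5 rose, 1 fell and 4 were not called (median 0.86). Slc30a9 was the most abundant in small intestine and rose from 935 ± 54.8 to 1719.9 ± 292 (limma adjusted p = 0.00851), Slc30a2 rose most but from 1.08 to 23.4 normalised counts (difference 2.89), and Slc30a5 fell from 780 to 406 (difference -0.94). Of 14 zinc importers of the Slc39 family 3 rose, 4 fell and 7 were not called (median -0.03). Slc39a14, which also carries iron, rose from 19.5 ± 12.1 to 351 ± 144 (difference 4.05, limma adjusted p = 0.000235). It had 564, 311, 260 and 270 normalised counts in SI_6, SI_7, SI_10 and SI_11. Epithelial, fibroblast and smooth muscle, and B and plasma cell markers had the same order of libraries, and their part was not tested. Slc39a11, the most abundant in bone marrow, fell from 949 ± 106 to 128 ± 22.0 (difference -2.86, limma adjusted p = 1.63e-05). Of 9 copper genes 6 rose, 1 fell and 2 were not called (median 2.19). Cox17, the copper chaperone of cytochrome oxidase, was the most abundant in small intestine and rose most, from 345 ± 40.9 to 5235 ± 2181 (difference 3.82, limma adjusted p = 3.67e-05), and Slc31a2, a copper transporter, fell from 1149.9 ± 76.1 to 573 ± 83.6 (difference -1.01, limma adjusted p = 0.00292). In either direction 77.8% of the copper, 60% of the Slc30 and 50% of the Slc39 genes were called. Of all genes with a mean of 10 reads, which 9 of 9, 7 of 10 and 12 of 14 reached, 63.1% were called.

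**Figure D5:**
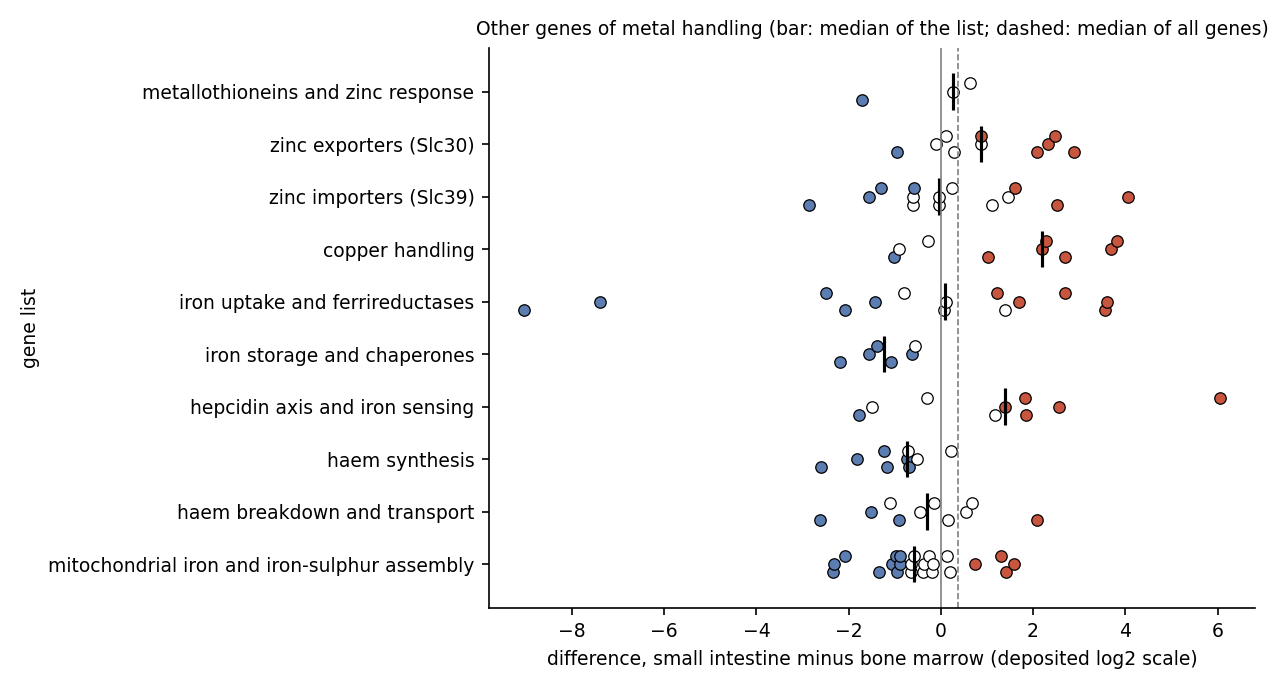
Difference between small intestine and bone marrow on the deposited log2 scale (horizontal axis) for the genes of each list of metal handling (vertical axis). Points are genes (red called higher, blue called lower, white not called), black bars are list medians, the solid line is 0 and the dashed line the median of all genes, 0.37. Iron storage, haem synthesis and the metallothionein and zinc response list hold no gene called higher, beside 22.0% of all genes. The copper list has the highest median, 2.19.

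The protein-coding gene with the most similar profile was found as the smallest root mean square distance between deposited log2 values centred over the 8 libraries, among 13226 genes averaging at least 10 reads. For the called genes these were P2ry13 for Fth1 (0.105), Adam19 for Slc11a1 (0.251), Tns3 for Mt1 (0.164), Erbb3 for Mt2 (0.203) and Synj2bp for Tfrc (0.0943). Among the others they were 2610001J05Rik for Ftl1 (0.0444), Zfp729a for Slc40a1 (0.0628), Suclg2 for Slc11a2 (0.0786) and Dcun1d3 for Ireb2 (0.0643). The 8 values are dominated by the tissue, and a gene with nearly no difference has many close neighbours.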

How the data were processed

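The authors aligned single-end reads to GRCm38 (Ensembl release 86) with nf-core/rnaseq, counted reads per gene, and variance stabilised the counts with DESeq2 in R 4.0.3. The deposited values are log2, as the authors transformed them. Which aligner and strand setting were used, and how reads with several matches were handled, is not given in the sources used here. Libraries were built from amplified cDNA of RNA with an integrity number of at least 7.

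The transformation was inverted from its lowest value, 0.92971568, and multiplied by a size factor per library (0.721 to 1.53). This gave whole read counts within 0.05 for 100% of the values. Genes were compared with limma 3.58.1 (R 4.3.3) on the deposited log2 values (8 libraries, no covariate, no filter, constant prior). P-values are 2-sided and adjusted over 38392 genes by Benjamini-Hochberg, with a threshold of 0.05. Ratios within a library (0.5 added to each count) and shares of reads were compared by exact 2-sided permutation tests over 70 assignments. The limma step was tested on simulated data. Python 3.11.15 (pandas 2.3.3, numpy 2.4.6, matplotlib 3.10.9, scipy 1.17.1) served for the rest.

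Depth limits precision for genes with few reads, such as Mt2 and Slc11a1 in bone marrow. No pair of libraries of a tissue agreed within counting noise, so each counted as a replicate.

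The 10 genes and the lists were chosen with earlier results of these data known. Named genes were the 10 genes, of each list the called genes with the largest rise and fall and the gene with the highest normalised count averaged over both tissues, of the marker lists some of the most abundant genes and those at 0, and the nearest profile of each gene; 2 genes that this rule names are not reported here. Alternatives were 3 other scalings, voom, a mean-dependent prior, pseudocounts of 1 and 5, a filter of 10 reads, and leaving out each library.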

Additional observations from a re-analysis of the deposited data

Results flagged for a closer look

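Of 66 groups of 4 libraries examined (each gene as deposited log2 value and as normalised count, the single values and the marker shares in each tissue), 6 held a library far from the other 3, with the gap to its neighbour over the whole range above Dixon's 95% critical value. Chance sets apart about 1 in 20 groups. SI_6 was set apart as the highest small intestine library in the normalised counts of Slc11a2 (gap 0.889 of the range; 293 against 93.0 to 115) and Aco1 (gap 0.854; 339 against 133 to 164). On the deposited log2 scale no gene was set apart. The other 4 were marker shares. The eosinophil marker share was highest in BM_5 (gap 0.869 of the range; 0.0497% of reads against 0.0353% to 0.0372% in the other bone marrow libraries) and lowest in SI_6 (gap 0.877; 0.219% against 0.267% to 0.273%). The erythroid marker share was lowest in BM_3 (gap 0.872; 0.00996% against 0.0118% to 0.0121%) and lowest in SI_11 (gap 0.915; 0.000744% against 0.00150% to 0.00157%). Without BM_5 the differences of Fth1 and Tfrc were 4.09 and -0.91 on the deposited log2 scale, and both passed the test.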

How the results depend on the processing

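Of the 160 comparisons of a gene's difference with an alternative, 154 kept their direction and their side of the threshold. The sign of Slc40a1 turned without BM_1 (0.0068) and without SI_6 (0.0594), within a range of -0.16 to 0.06 over the libraries left out. Mt2 lost its call with quantile normalisation (1.68), Ftl1 gained one there (-0.82), and Slc11a2 gained one when libraries were centred on the median of all genes (-1.45) and without SI_6 (-0.91). Centring also took the metal handling genes called higher from 29 to 17, for a cause not tested here. With single libraries left out, 5 to 6 of the 10 genes were called (3 higher, 2 to 3 lower), and 58 to 71 metal handling genes (25 to 30 higher, 31 to 41 lower). Differences between tissues then ranged from -5.99 to -5.46 for the log2 ratio of Mt1 to Mt2, 4.29 to 4.33 for Fth1 to Ftl1, -3.51 to -3.17 for Tfrc to ferritin, -0.00206 to -0.00162 percentage points for the metallothionein share and 0.222 to 0.236 for the ferritin share. They were -2.74 to -2.08 for Mt1, 2.01 to 2.95 for Mt2, 4.09 to 4.25 for Fth1, -1.08 to -0.86 for Tfrc and 8.32 to 8.74 for Slc11a1. The median difference of all genes was 0.37 as deposited, -0.53 after centring, -0.03 with quantile normalisation and 0.31 when centred over genes with at least 10 reads, a scaling added after seeing the data, as was adding the ferritin copies. No paired analysis was possible because bone marrow and small intestine columns share no number. Reads on Mt2 and Slc11a1 in bone marrow were few, and the folds of both rest on them.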
